A study of Mus musculus with 24 samples.

Results

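The proteasome is the protease complex that degrades ubiquitin-tagged proteins, and its subunit genes were taken here as every symbol of the count table made of Psma, Psmb, Psmc, Psmd or Psme and a number. This gave 43 of 36144 genes, of which 41 had enough reads to be tested. The tested genes were 7 of the alpha ring, 7 of the constitutive beta ring, 3 of the immunoproteasome (Psmb8, Psmb9 and Psmb10), 6 ATPases, 11 other subunits and 3 assembly chaperones (Psmd5, Psmd9 and Psmd10) of the 19S cap, and 4 activators (Psme1 to Psme4). Psma8, known from testis, had 0 to 4 reads per library, and Psmb11, known from the thymus, had 2 to 14, so neither was tested.

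The libraries are RNA-seq of polyadenylated RNA from interscapular brown fat, a heat-producing depot, of 24 mice that were 6 to 8 months old. Wild-type mice (WT, strain C57Bl/6J) and Th-Cre mice (strain label B6.129X1- Tht1(cre)Te/Kieg) received saline or deschloroclozapine (DCZ), a ligand of muscarinic designer receptors, and tissue was collected 30 minutes later. This gives 4 groups of 6 mice, with 3 males and 3 females in each, and 1 library per mouse. Th-Cre mice express Cre recombinase from tyrosine hydroxylase regulatory sequence, a driver known from catecholaminergic neurons, not from adipocytes. Whether a designer receptor was present in any group is not given in the sources used here.

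The core of the proteasome is a barrel of alpha rings, which form the gate, and beta rings, which hold the proteolytic sites: Psmb5 cuts after hydrophobic, Psmb6 after acidic and Psmb7 after basic residues. Interferon signalling replaces these 3 by Psmb8, Psmb9 and Psmb10, and the resulting immunoproteasome is known for making peptides for MHC class I. The 19S cap recognises ubiquitin and unfolds substrates with its ATPases (Psmc genes), whereas Psme1 and Psme2 form the interferon-inducible activator PA28, Psme3 forms its nuclear relative and Psme4 encodes PA200. In brown fat the transcription factor Nfe2l1 is known to sustain proteasome gene expression during adaptation to cold.

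Total estimated counts were 11.9 to 22.9 M per library, of which the proteasome genes took 0.227 to 0.289% (median 0.263%). The brown adipocyte markers Ucp1 (1752 to 6533 CPM, counts scaled to library size), Cidea (1183 to 1826 CPM), Plin1 (738 to 1359 CPM) and Adipoq (626 to 1037 CPM) were high in every library. The other markers listed, Dio2 (64.9 to 246 CPM) and Ppargc1a (19.5 to 61.4 CPM), were lower. 3 features of the libraries bear on the values below. Library numbers 1 to 12 are all WT and 13 to 24 all Th-Cre, so genotype and library number cannot be told apart; within WT, 5 of the 6 libraries numbered 1 to 6 are DCZ and 5 of the 6 numbered 7 to 12 are saline. 6 libraries, 5 of them Th-Cre and 4 of them female, contained skeletal muscle transcripts (mean log2 CPM of 13 markers 2.53 to 6.56, against -1.35 to 0.54 in the others). Longer transcripts were relatively more abundant in Th-Cre libraries, with a median slope of log2 CPM on log2 transcript length of 0.024 and 0.039 in Th-Cre saline and DCZ libraries against -0.051 and -0.013 in WT.

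Per length, the 4 most abundant members were constitutive core genes, and immunoproteasome transcripts were among the scarcest and the most variable. The core also held members low per length, such as Psma2, with 66.1 CPM over 2911 bases. Psma7 had a similar 60.5 CPM over 914 bases. Lengths are those of 1 annotated transcript per gene, which need not be the one expressed here. Psmb3 and Psmb7 stood at 98.4 CPM per kilobase of transcript, Psma6 at 97.3 and Psmb6 at 93.5, averaged over the libraries. The alpha ring genes spanned 22.7 to 97.3 CPM per kilobase, the 19S ATPases 30.1 to 47.9 and the other 19S subunits 19.8 to 90.9, where Psmd8, a subunit of the 19S lid, was the highest. The chaperones that assemble the 19S base were low, at 4.11 to 6.88 CPM per kilobase. Psmb8, Psmb9 and Psmb10 stood at 8.56, 6.79 and 9.64 CPM per kilobase. The coefficient of variation over the 24 libraries was 26.8% for Psmb8, 26.6% for Psmb9 and 21.4% for Psmb10, and 6.39% for Psma1, the steadiest member.

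The ratio of each immunoproteasome gene to its constitutive counterpart, per length, was low in every group. Psmb8 stood at 10.1% ± 2.61 (SD, n = 6) of Psmb5 in WT mice given saline, 8.74% ± 0.945 in those given DCZ, and 9.05% ± 1.67 and 10.3% ± 2.15 in Th-Cre mice given saline and DCZ, all with overlapping ranges. Psmb9 stood at 7.09, 6.51, 7.33 and 8.37% of Psmb6 in the same order. Psmb10 stood at 11.7, 10.1, 8.69 and 8.57% of Psmb7. In bulk tissue, fewer cells of a type and less RNA per cell cannot be told apart, and T and NK cell markers were near 0 (5 genes, 1.5 to 6.1 CPM summed) while 8 macrophage markers summed to 58.2 to 199 CPM.

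Promoter windows from RefSeq (GRCm38.p6, 250 bases before to 50 after the start) matched 36 of the 43 genes, in 39 windows. The windows of Psme1, Psmb6 and Psmb8 are shown up to 20 bases after the start, because Psme1 and Psmb6 differed between genotypes below and Psmb8 is the interferon-inducible counterpart of Psmb5. Capitals mark the interferon-stimulated response element (ISRE) core, GAAA, any 2 bases and GAAA, on the reverse strand in Psme1 (chr14:55578244-55578513, + strand), the antioxidant response element core TGACNNNGC, bound by Nfe2l1 and Nfe2l2, in Psmb6 (chr11:70525107-70525376, + strand), and the STAT core TTCNNNGAA in Psmb8 (chr17:34197945-34198214, + strand).
Psme1: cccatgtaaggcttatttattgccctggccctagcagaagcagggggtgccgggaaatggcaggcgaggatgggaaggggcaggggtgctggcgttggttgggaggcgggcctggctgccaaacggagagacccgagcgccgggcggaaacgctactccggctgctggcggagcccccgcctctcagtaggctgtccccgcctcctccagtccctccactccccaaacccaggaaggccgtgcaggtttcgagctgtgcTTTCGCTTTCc
Psmb6: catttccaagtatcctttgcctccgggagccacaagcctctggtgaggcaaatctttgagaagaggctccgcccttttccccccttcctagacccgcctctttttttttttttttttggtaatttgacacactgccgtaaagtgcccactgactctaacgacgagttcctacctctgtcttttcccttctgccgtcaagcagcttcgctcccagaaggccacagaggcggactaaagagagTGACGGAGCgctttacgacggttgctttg
Psmb8: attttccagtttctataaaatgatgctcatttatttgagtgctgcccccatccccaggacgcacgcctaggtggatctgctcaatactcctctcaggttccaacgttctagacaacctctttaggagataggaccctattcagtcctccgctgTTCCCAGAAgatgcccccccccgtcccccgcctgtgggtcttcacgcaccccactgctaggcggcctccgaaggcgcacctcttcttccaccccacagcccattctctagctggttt
Searched on both strands, TGACNNNGC was in 6 of the 39 windows (15.4%; Psmb5, Psmb6, Psmc6, Psmd9, Psmd12 and Psme4) and in 12.4% of all 32851 windows. The ISRE core was in 4 (10.3%; Psmb3, Psmd4, Psmd9 and Psme1) and in 3.44% of all, and TTCNNNGAA was in 2 (5.13%; Psmb8 and Psmd2) and in 8.3% of all. CCAAT, the NF-Y core, was in 14 (35.9%) and in 37.4% of all. No match of one motif overlapped a match of another (0 pairs among 37 matches), and a match of these letters is not evidence of a bound site.

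Within 30 minutes of DCZ, no proteasome gene changed in Th-Cre mice. Of all 13129 genes tested, 3 changed (0.0229%), 745 had an unadjusted p under 0.05, and 0 of the 41 proteasome genes were among the latter. DESeq2 also called 0 of the 41. The 95% intervals of the 41 log2 fold changes lay between -0.34 and 0.55, and the median was -0.03. The smallest p-values belonged to Psma4, an alpha ring gene (log2 fold change -0.12 ± 0.066 (SE), adjusted p = 0.905), and Psmd14, the deubiquitinase of the 19S lid (-0.15 ± 0.084, adjusted p = 0.905). On the positive side they belonged to Psmd8 (0.07 ± 0.066, adjusted p = 0.992) and the ubiquitin receptor Psmd4 (0.08 ± 0.083, adjusted p = 0.998).

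In WT mice, too, no proteasome gene passed the edgeR test after DCZ (0 of 41). DESeq2 called none either, but it gave an adjusted p to only 2948 of the 13129 genes, and a member without one could not be called. By edgeR 1 of all genes changed (0.00762%), and 1137 of the 13129 genes had an unadjusted p under 0.05. Of the 41 proteasome genes 5 did, each with a negative fold change. Psmb10 had a log2 fold change of -0.27 ± 0.106 (adjusted p = 0.527), Psmb8 one of -0.41 ± 0.176 (adjusted p = 0.537) and Psma7, an alpha ring gene, one of -0.18 ± 0.071 (adjusted p = 0.527). On the positive side the smallest p belonged to Psme3 (0.12 ± 0.072, adjusted p = 0.617). The 95% intervals spanned -0.77 to 0.27 and the median was -0.07. DCZ and saline mice in WT come largely from different ranges of library numbers. With a term for library number within WT, added after the data were seen, again no proteasome gene was called. The fold changes under that term are not given here.

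The DCZ response did not differ between genotypes for any proteasome gene past the threshold. Over all genes 1 changed (0.00762%), 980 had an unadjusted p under 0.05, and 1 of the 41 was among these. That gene was Psmb8, the immunoproteasome counterpart of Psmb5, with a difference of DCZ responses (Th-Cre minus WT) of 0.57 ± 0.251 on the log2 scale (95% interval 0.05 to 1.09, adjusted p = 0.635). Psmb8 stood at 8.70 to 22.8 CPM (median 17.7) in WT saline mice and 9.90 to 17.4 CPM (12.8) with DCZ. In Th-Cre mice it stood at 9.70 to 14.6 CPM (12.5) with saline and 10.9 to 19.2 CPM (12.9) with DCZ. All 4 ranges overlapped, and the highest median was that of WT saline. Within WT, libraries 7 to 12 are largely saline and libraries 1 to 6 largely DCZ. In an edgeR model that also held group and sex, Psmb8 was higher by 0.59 ± 0.230 in libraries 7 to 12 (adjusted p = 0.213). That value is adjusted for treatment, and few libraries separate library number from treatment. For Psmb9 the difference of DCZ responses was 0.39 ± 0.259 (adjusted p = 0.749) and for Psme2 it was 0.18 ± 0.104 (adjusted p = 0.71). DESeq2 called 0 of the 41 here.

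**Figure D1:**
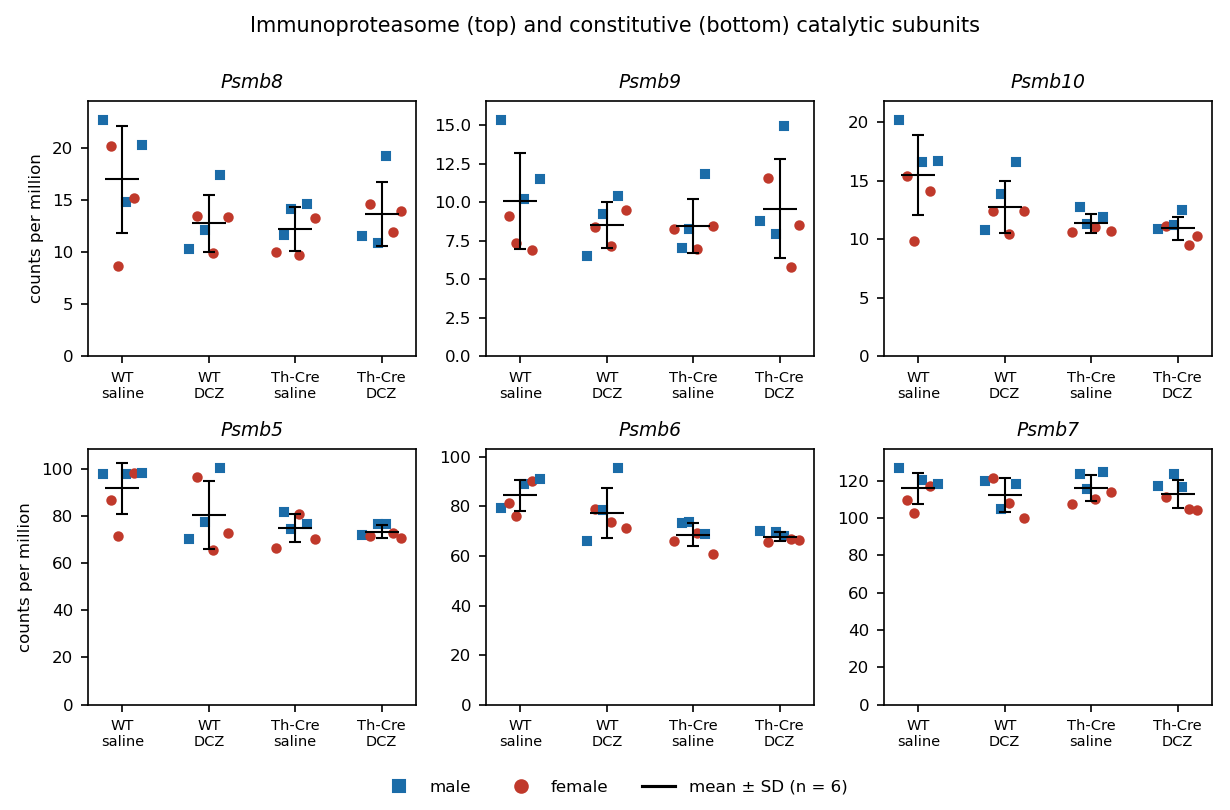
CPM of the 3 constitutive catalytic genes (Psmb5, Psmb6, Psmb7) and the 3 immunoproteasome genes (Psmb8, Psmb9, Psmb10) in each of the 24 libraries, by group, with the group mean and SD (n = 6). Psmb6 in Th-Cre saline mice (61.0 to 73.7 CPM) lies wholly below WT saline mice (76.0 to 91.1), whereas Psmb7 means are 112 to 116 CPM in all groups.

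Under saline, Th-Cre mice had lower transcript levels of most of the constitutive beta ring and of PA28, and higher levels of a few 19S genes. Of the 41 proteasome genes 15 changed, 11 lower and 4 higher in Th-Cre mice. Among all genes 24.9% changed, 12.4% lower and 12.5% higher. The median log2 fold change was -0.10 over the 41 genes and -0.01 over all genes, and 27 of the 41 were negative. None of the 15 was called without the 6 libraries with muscle transcripts, although all 15 kept their sign. That fit rests on fewer mice, because the 6 include the Th-Cre saline libraries DN2086, DN2087 and DN2094. With a term for library number within WT, 4 were called. The values are given after the comparisons. With each library's trend on transcript length taken out, 10 genes were called, 7 higher and 3 lower, and 6 of the 15 calls remained.

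The beta ring was largely lower, with 6 of 7 genes lower and a median of -0.24. Psmb6 stood at 76.0 to 91.1 CPM (median 85.2) in WT saline and 61.0 to 73.7 CPM (69.0) in Th-Cre saline mice. Every Th-Cre library lay below every WT library, and the log2 fold change was -0.30 ± 0.0685 (adjusted p = 0.00408). Psmb4, a structural beta subunit, stood at 58.9 to 86.9 CPM (median 81.1) in WT saline and 54.6 to 63.6 CPM (61.8) in Th-Cre saline mice. These ranges overlapped through the lowest WT library, and the log2 fold change was -0.37 ± 0.090 (adjusted p = 0.00578). Psmb5, the chymotrypsin-like subunit, stood at 71.8 to 98.5 CPM (98.0) and 66.7 to 81.6 CPM (75.5), with a log2 fold change of -0.29 ± 0.091 (adjusted p = 0.0232). The structural subunits Psmb1 (-0.24 ± 0.061, adjusted p = 0.0084), Psmb2 (-0.19 ± 0.056, adjusted p = 0.015) and Psmb3 (-0.24 ± 0.087, adjusted p = 0.0457) were also lower. Psmb7, the trypsin-like subunit, was the member that did not pass, at 0.00 ± 0.055 (95% interval -0.11 to 0.12), with means of 116 CPM in both groups. With the length trend taken out, Psmb1 was the beta ring gene that stayed called lower, Psmb6 was at -0.03 and Psmb5 at -0.04, Psmb2 (0.07) and Psmb3 (0.04) turned sign, and Psmb7 was called higher (0.19).

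Of the immunoproteasome genes 1 of 3 was lower. Psmb10 (chromosome 8, 105935735 to 105938444) stood at 9.84 to 20.2 CPM (median 16.03) in WT saline and 10.6 to 12.7 CPM (11.2) in Th-Cre saline mice. The WT range enclosed the Th-Cre range, and the log2 fold change was -0.43 ± 0.108 (adjusted p = 0.00623). Psmb8 (chromosome 17, 34197721 to 34201454) had a fold change of similar size, -0.47 ± 0.178, that missed the threshold (adjusted p = 0.0532). Psmb9 (chromosome 17, 34181987 to 34187764) was at -0.24 ± 0.184 (adjusted p = 0.356). Psmb9 overlaps Tap1 on the other strand, and Psmb8 and Psmb10 each overlap a predicted gene, so with strand use not given their reads may include those of the partner. The same limit holds for other members, among them Psme1 (Emc9), Psmd1 (Htr2b), Psmd5 (Cutal) and Psmb7 (Nek6). Psmd1 also overlaps Gm21972, Gm22786 and Gm37914 on its own strand. Psmb6, Psmd11 and Psme2 overlap no other gene.

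Both PA28 subunits were lower and their nuclear relative was higher. Psme2 (chromosome 14, 55587441 to 55591113) stood at 61.8 to 85.2 CPM (median 77.4) in WT saline and 56.8 to 69.3 CPM (58.7) in Th-Cre saline mice. In 5 of 6 Th-Cre libraries it lay below the lowest WT library, and its log2 fold change of -0.34 ± 0.0738 had the smallest p of the 41 genes (adjusted p = 0.00333). Psme1 (chromosome 14, 55578123 to 55581529) stood at 46.5 to 70.6 CPM (55.0) and 40.2 to 55.0 CPM (45.0), which overlapped, with a log2 fold change of -0.31 ± 0.081 (adjusted p = 0.00896). Psme3 averaged 60.2 ± 7.38 CPM in WT saline and 70.0 ± 3.65 CPM in Th-Cre saline mice (0.22 ± 0.072, adjusted p = 0.0272). Psme4, which encodes PA200, was at 0.14 ± 0.093 (adjusted p = 0.264). With the length trend taken out, Psme1 (-0.11) and Psme2 (-0.10) were not called and Psme3 was.

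In the 19S cap 3 genes were higher, 1 was lower and none of the 6 ATPases passed. Psmd11 (chromosome 11, 80428615 to 80473248), a scaffold of the lid, stood at 63.0 to 68.5 CPM (median 64.8) in WT saline and 69.3 to 89.9 CPM (79.1) in Th-Cre saline mice. The 2 groups did not overlap, and the log2 fold change was 0.27 ± 0.0705 (adjusted p = 0.00872). Psmd1 (chromosome 1, 86064387 to 86139151), a scaffold of the base that docks ubiquitin receptors, stood at 63.6 to 80.8 CPM (71.2) and 83.9 to 99.5 CPM (86.9), without overlap (0.32 ± 0.0884, adjusted p = 0.0107). The chaperone Psmd5 was higher (0.24 ± 0.088, adjusted p = 0.0454) and the ubiquitin receptor Psmd4 lower (-0.22 ± 0.083, adjusted p = 0.0497). In the alpha ring 1 of 7 genes was lower, Psma3 (-0.30 ± 0.103, adjusted p = 0.0389), with 79.3 to 116 CPM in WT saline and 77.4 to 108 CPM in Th-Cre saline mice. Of the 15 genes called under saline, 9 were called whichever single library of the 24 was left out: Psmb1, Psmb2, Psmb4, Psmb6, Psmb10, Psmd1, Psmd11, Psme1 and Psme2.

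**Figure D2:**
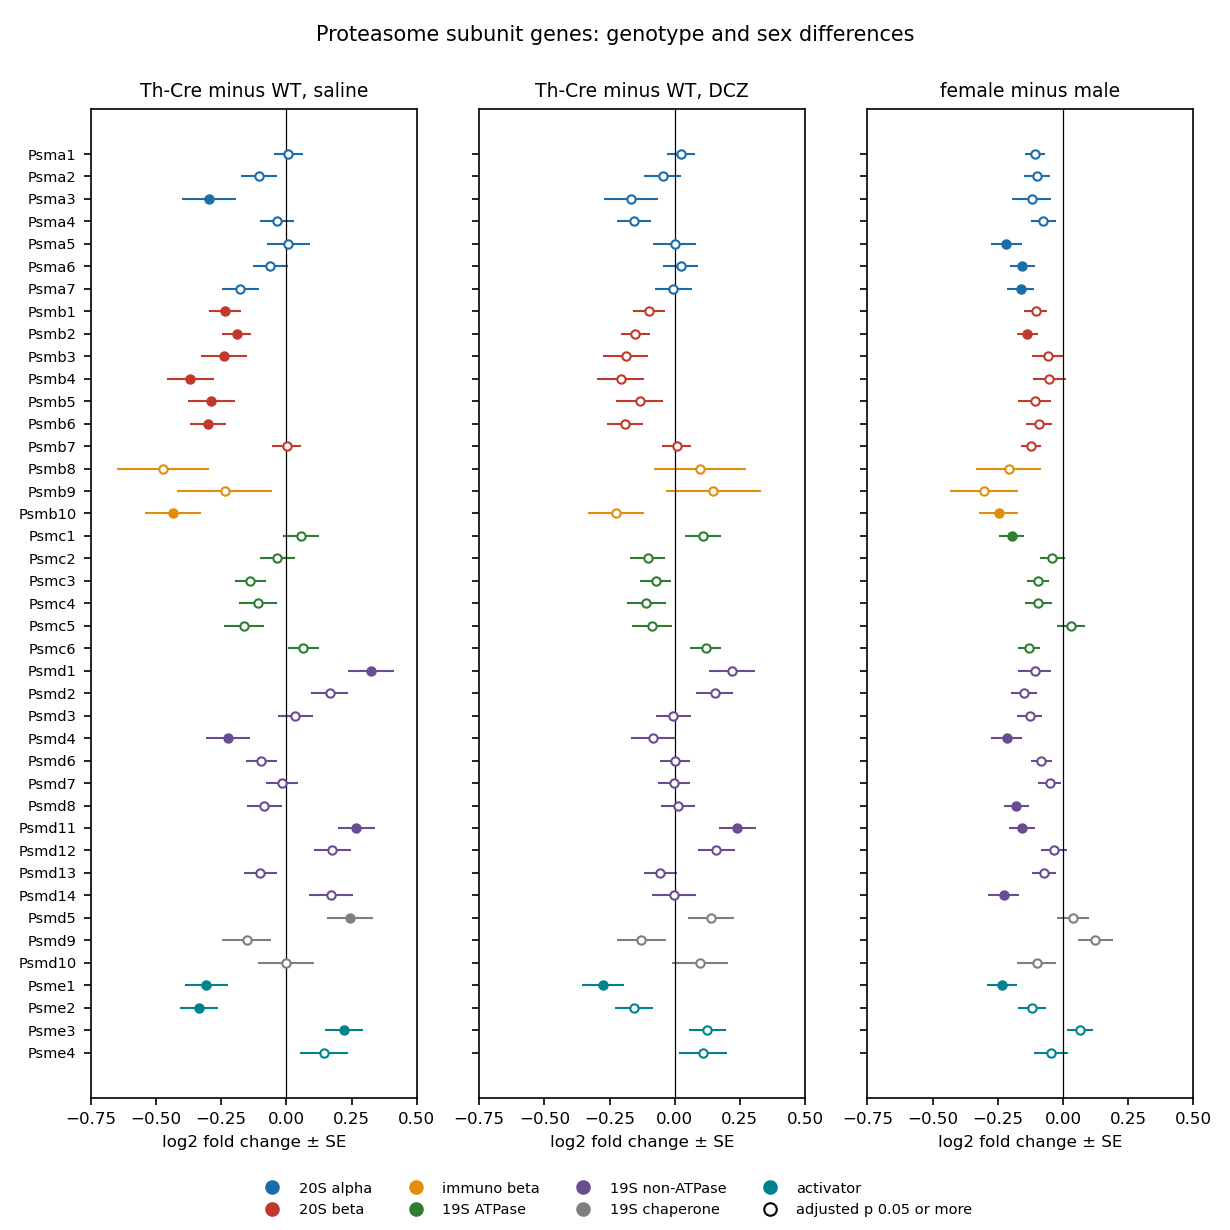
Log2 fold change with its SE (bars) of the 41 tested genes, for Th-Cre minus WT under saline and after DCZ and for female minus male, coloured by role in the complex, with filled points for an adjusted p under 0.05. Under saline 6 of 7 beta ring genes are filled and negative, after DCZ Psmd11 and Psme1 are filled, and 37 of 41 genes are negative in the sex panel.

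After DCZ the same genotype comparison, in other mice, called 2 proteasome genes, Psmd11 and Psme1. Among all genes 13.8% changed, 6.75% higher and 7.02% lower in Th-Cre mice. Psmd11 stood at 58.8 to 74.1 CPM (median 64.9) in WT DCZ and 63.6 to 91.8 CPM (78.3) in Th-Cre DCZ mice, with overlap, and the log2 fold change was 0.24 ± 0.0703 (adjusted p = 0.0266). Psme1 stood at 41.2 to 63.8 CPM (53.5) and 40.7 to 47.0 CPM (43.5), also with overlap, and the log2 fold change was -0.28 ± 0.081 (adjusted p = 0.0268). Neither passed the threshold when WT libraries 3, 5 or 6 or Th-Cre libraries DN2072, DN2091 or DN2097 were left out singly (0 proteasome genes each), and 7 genes passed without WT library 1. The shares of all genes called in these fits are not given here, so the changes in count may not be particular to proteasome genes.

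The other genes called under saline missed the threshold. Psmb6 was at -0.19 ± 0.068 (adjusted p = 0.0619), Psmd1 at 0.22 ± 0.088 (adjusted p = 0.0925), Psme2 at -0.16 (adjusted p = 0.156), Psmb10 at -0.22 (adjusted p = 0.165) and Psmb5 at -0.13 (adjusted p = 0.332). Psmb8 and Psmb9 had positive values, 0.10 ± 0.178 (adjusted p = 0.756) and 0.15 ± 0.183 (adjusted p = 0.628). The 2 genotype comparisons share no library, and 32 of 41 proteasome genes (78.0%) had the same sign in both, against 75.6% of all genes tested. Whether a genotype difference itself changed with DCZ is the interaction above, where no member passed.

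**Figure D3:**
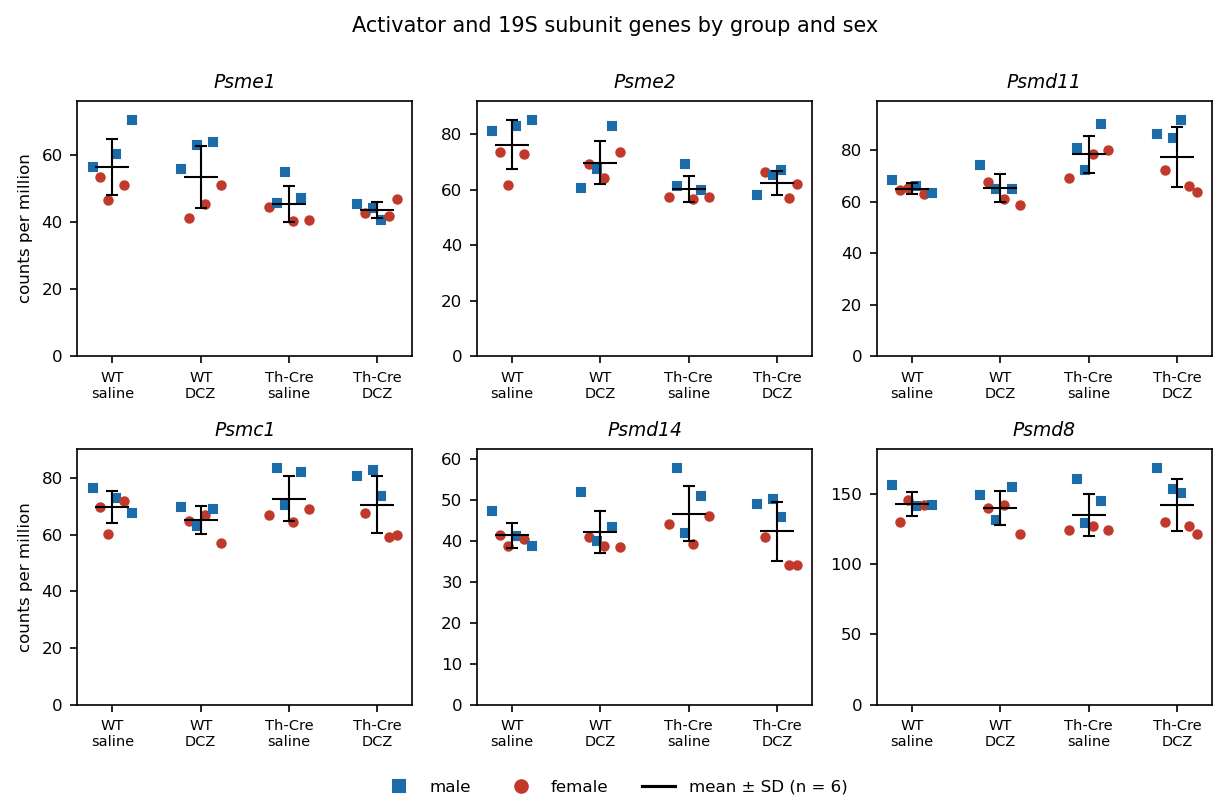
CPM of Psme1, Psme2, Psmd11, Psmc1, Psmd14 and Psmd8 in each library, by group and by sex, with 3 males and 3 females per group. Psmd11 is higher in Th-Cre than WT mice under saline (69.3 to 89.9 against 63.0 to 68.5 CPM), and Psmc1, Psmd14 and Psmd8 have lower means in females.

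Library number within WT moved with several of these genes. WT libraries 7 to 12 were set against 1 to 6 in an edgeR model that also held group and sex. There 0 of 13129 genes (0%) and 0 of the 41 were called at the threshold, but 2121 genes and 16 of the 41 had an unadjusted p under 0.05. Of the 41, 33 were positive, with a median of 0.14. The CPM averages that follow are not adjusted for group or sex, whereas the log2 values are from that model. Psmb5 averaged 76.5 CPM in WT libraries 1 to 6, 96.1 in 7 to 12 and 74.3 in Th-Cre libraries (7 to 12 minus 1 to 6 in the model: 0.37 ± 0.095). Psmb4 averaged 66.0, 81.4 and 60.2 CPM and Psmb10 12.3, 15.9 and 11.2 CPM in the same order. Psme1 (-0.05 ± 0.115), Psmd11 (0.03 ± 0.093) and Psmb6 (0.11 ± 0.090) had small values in that comparison. With a term for this split in the model, which was added after the data were seen, 4 proteasome genes remained called under saline (Psmb6, Psme1 and Psme2 lower, Psmd11 higher; 8.84% of all genes), and 10 were called after DCZ, 2 higher and 8 lower (20.3% of all genes).

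**Figure D4:**
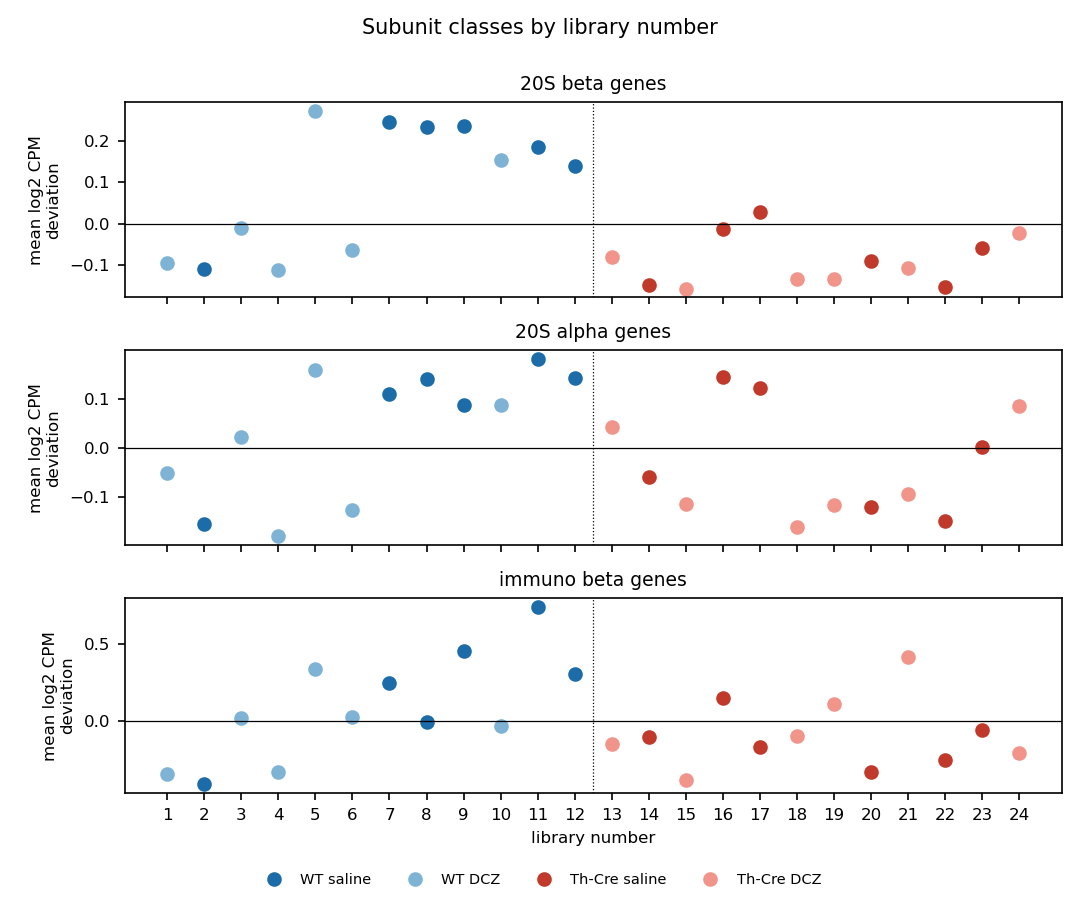
Mean log2 CPM deviation of the beta ring, alpha ring and immunoproteasome genes from their mean over all libraries, against library number (1 to 12 WT, 13 to 24 Th-Cre), with DCZ and saline libraries marked. The beta ring averages -0.02 in WT libraries 1 to 6 and 0.20 in 7 to 12, and library 5 (0.27) is at the level of 7 to 12.

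Transcript length moved with the genotype values as well. Across the 41 genes the correlation of the log2 fold change with log2 transcript length was 0.59 under saline and 0.55 after DCZ, against 0.16 and 0.16 across all 13118 genes with a length; genes of 1 complex share libraries and are not independent. Of the 20 proteasome genes under 1500 bases, 17 were negative under saline (median -0.18), and of the 21 longer ones 10 were (median 0.03). When each library's length trend was taken out, again an alternative added after the data were seen, 10 genes were called under saline, 7 higher and 3 lower (19.4% of all genes). Those lower were Psma3 (-0.31), Psmb1 (-0.16) and Psmb10 (-0.28), and those higher included Psmd1, Psmd11 and Psme3. After DCZ the same alternative called 3, all higher: Psma6, Psmd11 (0.23) and Psmd12 (9.92% of all genes).

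**Figure D5:**
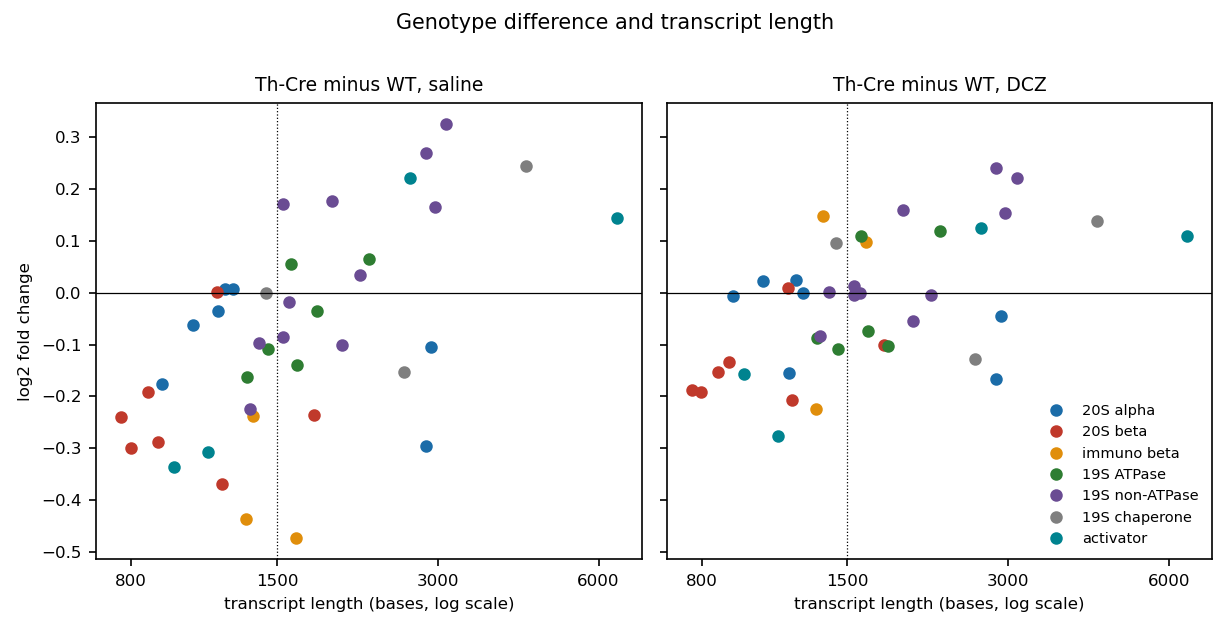
Log2 fold change of Th-Cre against WT mice for each of the 41 genes against transcript length (log axis, bases), under saline and after DCZ. Genes under 1500 bases, which include most of the core, are mostly negative under saline (17 of 20), and longer genes are not (10 of 21).

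Some markers of other cell types also differed between genotypes under saline, where 24.9% of all genes changed (13.8% after DCZ). The marker calls were not examined without the libraries with muscle transcripts, with the library number term or with the length trend taken out. All 4 endothelial markers were lower in Th-Cre saline mice (437 to 492 CPM summed, against 461 to 837 in WT saline), and 1 of 4 after DCZ. Of 8 macrophage and 5 T and NK cell markers none passed in either genotype comparison. Of 5 B and plasma cell markers, 2 were lower under saline and 3 after DCZ, and the plasma cell gene Jchain was higher in both (2.94 and 2.57); the 5 summed to 1.03 to 8.94 CPM in WT and 2.72 to 19.8 CPM in Th-Cre mice. Of 2 neutrophil markers, S100a9 was higher under saline (1.11). Of 13 muscle markers 0 passed under saline and 3 were higher in Th-Cre mice after DCZ. Their part in the proteasome values was not tested beyond leaving out the 6 libraries with muscle transcripts. Without these, 0 proteasome genes were called under saline (0.813% of all genes) and 0 after DCZ (3.99%), and the median of the tested members was -0.06 (22 of 42 negative). The 15 genes called with all libraries had the same sign, with log2 fold changes 0.709 (Psma3) to 1.15 times those with all libraries, for example Psmb6 -0.33 (adjusted p = 0.0671), Psmb10 -0.45 (0.083), Psmd11 0.30 (0.0796), Psme2 -0.30 (0.0919) and Psme1 -0.27 (0.153).

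Some proteasome genes had lower transcript levels in females than in males: 5 of the 19S cap, 3 of the alpha ring, and 1 each of the beta ring, the immunoproteasome and the activators. Without the 6 libraries with muscle transcripts, 1 of these calls remained. They are 11 of the 41 genes lower in females and 0 higher, where 8.07% of all genes changed, 3.95% lower and 4.11% higher. The median log2 fold change (female minus male) was -0.11 over the 41 genes and 0.00 over all genes, and 37 of the 41 were negative, including all 11 non-ATPase subunits of the 19S cap.

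Psme1 stood at 40.7 to 70.6 CPM (median 55.4) in the 12 males and 40.2 to 53.6 CPM (45.0) in the 12 females. The sexes overlapped, with means of 54.0 ± 9.38 and 45.5 ± 4.49 CPM and a log2 fold change of -0.24 ± 0.0573 (adjusted p = 0.0123). Psmc1, an ATPase that helps open the gate of the core, stood at 63.1 to 83.8 CPM (73.4) in males and 57.0 to 72.1 CPM (66.1) in females. In 4 of 12 females it lay below the lowest male, and the log2 fold change was -0.20 ± 0.0484 (adjusted p = 0.0132). Psmd14, the deubiquitinase, stood at 38.6 to 57.8 CPM (46.4) in males and 33.9 to 46.1 CPM (39.8) in females, again with 4 females below the lowest male (-0.23 ± 0.059, adjusted p = 0.0195). Psmd8 averaged 149 ± 11.5 CPM in males and 131 ± 8.77 CPM in females (-0.18 ± 0.047, adjusted p = 0.0198), with 6 of 12 females below the lowest male.

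For Psmd4 and Psma5, 7 of 12 females lay below the lowest male. Psmd4 averaged 109 ± 10.7 CPM in males and 94.2 ± 11.8 CPM in females (-0.22 ± 0.059, adjusted p = 0.0237). Psma5, an alpha ring gene, averaged 34.1 ± 3.10 and 29.4 ± 2.99 CPM (-0.22 ± 0.059, adjusted p = 0.0237). Lower in females by smaller amounts were Psmb2 (-0.14, adjusted p = 0.032), Psma6 (-0.16, adjusted p = 0.0408), Psma7 (-0.16, adjusted p = 0.0467) and Psmd11 (-0.16, adjusted p = 0.0494). Psmb10 was lower too (-0.25 ± 0.076, adjusted p = 0.0454), whereas Psmb8 (-0.21 ± 0.126, adjusted p = 0.344) and Psmb9 (-0.30 ± 0.130, adjusted p = 0.16) did not pass. Of the catalytic subunits, Psmb7 lay just outside the threshold (-0.12, adjusted p = 0.0516), and Psmb5 was at -0.11 (adjusted p = 0.331) and Psmb6 at -0.09 (adjusted p = 0.266). The positive values with the smallest p were those of Psmd9 (0.12 ± 0.067, adjusted p = 0.274) and Psme3 (0.07 ± 0.051, adjusted p = 0.479).

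Within each genotype the sex values had the same main direction with fewer calls. In WT mice 1 proteasome gene was called (2.7% of all genes), Psme1 (-0.36, adjusted p = 0.0101), and 31 of 41 values were negative. In Th-Cre mice 4 were called (1.87% of all genes): Psmc1 (-0.29, adjusted p = 0.0183), Psmd8 (-0.27, adjusted p = 0.0315), Psma5 (-0.32, adjusted p = 0.0405) and Psmd14 (-0.32, adjusted p = 0.0459), and 38 of 41 values were negative. The difference between the genotypes in the sex value was called for 0 of 13129 genes (0%); 900 genes and 3 of the 41 had an unadjusted p under 0.05, among them Psme1 (0.25 ± 0.105, adjusted p = 0.682). DESeq2 was not run on that difference.

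Of 13 skeletal muscle markers 8 were called higher in females, where 8.07% of all genes changed. The 13 summed to 55.9 to 1588 CPM in females (median 80.2) and 50.6 to 169 CPM in males (median 83.0). Most of the libraries with muscle transcripts were from females. Without the 6 libraries with muscle transcripts 1 proteasome gene was called, Psme1 (-0.27, adjusted p = 0.0348; 6.23% of all genes), and 37 of 42 tested values were negative. Leaving out single mice gave 6 to 11 calls, and 5 genes were called in all 24 such fits: Psmc1, Psmd4, Psmd8, Psmd14 and Psme1. There were 6 calls without WT library 4 or Th-Cre library DN2087, DN2099 or DN2207, and 7 without WT library 2, 5, 6, 7 or 11 or Th-Cre library DN2072, DN2086 or DN2205. Shares of all genes called in these single-library fits are not given here, so these changes may not be particular to proteasome genes.

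The 3 immunoproteasome genes varied together from mouse to mouse after the group and sex means were removed. Over 24 libraries, with permutation p-values adjusted over 4 relations, Psmb8 and Psmb10 correlated with r = 0.80 (p = 1e-05, the smallest that 100000 resamples can give; adjusted 4e-05) and rho = 0.77 (p = 2e-05, adjusted 6e-05). Psmb8 and Psmb9 correlated with r = 0.70 (p = 0.0002, adjusted 0.0004) and rho = 0.77 (p = 3e-05, adjusted 6e-05). Psmb9 and Psmb10 correlated with r = 0.61 (p = 0.00119, adjusted 0.00159) and rho = 0.66 (p = 0.00071, adjusted 0.000947). Without the 2 libraries farthest from the median these r values were 0.71, 0.72 and 0.56. For Psme1 and Psme2, which assemble into 1 ring, r was 0.40 (p = 0.0517) and rho 0.40 (p = 0.051), and r was 0.35 without 2 libraries.

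Within WT mice (n = 12) the permutation test gave r = 0.93 for Psmb8 and Psmb10 (p = 1e-05), 0.72 for Psmb8 and Psmb9 (p = 0.00849) and 0.77 for Psmb9 and Psmb10 (p = 0.00338). Within Th-Cre mice (n = 12) the permutation test gave, in the same order, 0.43 (p = 0.162), 0.75 (p = 0.00602) and 0.56 (p = 0.0614). The Psmb8 and Psmb10 relation therefore passed in WT and not in Th-Cre mice, and the difference between them was not tested. Within WT libraries 1 to 6 and 7 to 12, r was 0.97 and 0.72 for Psmb8 and Psmb10, 0.78 and 0.63 for Psmb8 and Psmb9, and 0.83 and 0.83 for Psmb9 and Psmb10. As a description, the median r over pairs was 0.63 within the beta ring (21 pairs), 0.51 within the alpha ring (21), 0.52 between the rings (49), 0.47 among the ATPases (15) and -0.37 among the activators (6), over the same 24 libraries.

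Of 33 tested genes that work with the proteasome (assembly factors, transcription factors, ubiquitin genes, shuttles), 7 were higher and 5 lower in Th-Cre mice under saline, and 7 and 4 after DCZ, where 24.9% and 13.8% of all genes changed. Without the 6 libraries with muscle transcripts 0 were higher and 1 lower under saline (0.813% of all genes called), and 2 and 2 after DCZ (3.99%). Nfe2l1, the transcription factor that drives proteasome genes, was higher by 0.57 ± 0.108 under saline (adjusted p = 0.00166) and 0.34 ± 0.108 after DCZ (adjusted p = 0.0383). Ddi2, the protease that activates Nfe2l1, was higher by 0.23 (adjusted p = 0.0141) and 0.24 (adjusted p = 0.021). Usp14, a deubiquitinase of the 19S cap, was higher by 0.29 (adjusted p = 0.0192) and 0.40 (adjusted p = 0.00599). Sem1, a small 19S subunit whose symbol lies outside the Psm names, was at -0.42 (adjusted p = 0.00308) and -0.41 (adjusted p = 0.00582). With the length trend taken out, Sem1 was called in both comparisons, Nfe2l1 only under saline, Usp14 only after DCZ and Ddi2 in neither. With the library number term, Nfe2l1 and Sem1 were called in both, and Ddi2 and Usp14 only after DCZ. Without the libraries with muscle transcripts, only Sem1 among these was called, and only after DCZ. By sex 0 were higher and 5 lower in females (8.07% of all genes changed; 2 lower without the 6 libraries, Ufd1 and Usp14), among them Ufd1, of the segregase that extracts ubiquitinated proteins (-0.24, adjusted p = 0.00099), Usp14 (-0.34, adjusted p = 0.00151) and the ubiquitin receptor Adrm1 (-0.27, adjusted p = 0.0218).

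Of 20 interferon and antigen presentation genes, which use or accompany the immunoproteasome, 7 were lower and 0 higher in Th-Cre mice under saline, where 12.4% of all genes were lower and 12.5% higher. None was called without the 6 libraries with muscle transcripts (0 of 20, where 0.813% of all genes were called). None was called with the library number term (0 of 20, where 8.84% of all genes were). With the length trend taken out, the same 7 were called lower and 0 higher (19.4% of all genes called). The 7 were Tap1, which carries peptides to MHC class I (-0.51, adjusted p = 0.0371), Nlrc5, an activator of MHC class I genes (-0.44, adjusted p = 0.0427), the interferon pathway factors Irf1 (-0.47, adjusted p = 0.00889), Irf9 (-0.50, adjusted p = 0.00781) and Stat2 (-0.46, adjusted p = 0.0137), and the interferon-induced GTPases Gbp3 (-0.61, adjusted p = 0.0219) and Irgm1 (-0.45, adjusted p = 0.0288). After DCZ 1 was higher, the GTPase Gbp2 (0.59, adjusted p = 0.0452), and 1 lower, the chaperone Calr (-0.20, adjusted p = 0.0392), while Tap1 was at 0.15 (adjusted p = 0.598). In the interaction 18 of the 20 had positive values and 0 passed the threshold, with Irf1 at 0.76 ± 0.176 (adjusted p = 0.204) and Tap1 at 0.66 ± 0.248 (adjusted p = 0.607). The median of the 20 was 0.37, and 0.20 with the library number term. It was 0.36 without the libraries with muscle transcripts and 0.35 with the length trend taken out. In each setting 2 of the 20 were negative and 0 passed.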

How the data were processed

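The authors deposited estimated counts per gene symbol as whole numbers, made per the submitters' processing notes with kallisto 0.44.0 and GRCm38.p6 from RNA prepared, per the labels' protocols, with a Tri-Isolate kit, poly-A selection and TruSeq libraries. Not given in the sources used here: transcript set, gene summing rule and strand use. The count of reads per library (13.9 to 25.8 M) and the percent pseudoaligned (84.2 to 88.7) were deposited by the authors too. The normalized signal tables deposited by the authors, each count divided by 1 size factor per library within a genotype, served only as an alternative.

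Genes were filtered with filterByExpr by group (13129 left, 99.9% of reads), scaled by the trimmed mean of M values, and fitted with edgeR 4.0.16 quasi-likelihood (R 4.3.3) over all 24 libraries with group means and a sex term. Adjusted p-values are Benjamini-Hochberg values over all genes tested, with a threshold of 0.05, and "changed", "called", "higher" and "lower" refer to it. SE is the size of a log2 fold change over the root of its F statistic. CPM are on the scaled library sizes. The biological coefficient of variation was 15.6%. Genes were named by a rule: those past the threshold, the 2 with the smallest p in each direction, the catalytic, immunoproteasome and activator genes, and up to 4 per partner list. The members and lists were chosen with earlier results of these data known. Alternatives used DESeq2 1.42.0, limma 3.58.1, other scalings and filters, and left out libraries. The length and library number alternatives, and all alternatives for the partner lists, were chosen after seeing the data. The scripts were tested on simulated data. Loci are on GRCm38 (GENCODE M21). Transcript length is that of 1 GENCODE transcript per gene, the best-ranked APPRIS principal one and the longest where several tie. Without such a tag the longest protein-coding transcript was used, or else the longest transcript. Replicates did not agree within sampling noise, so every library counts as 1 replicate.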

Additional observations from a re-analysis of the deposited data

Results flagged for a closer look

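Within a group of 6 mice, 13 of 164 sets of a proteasome gene and a group (7.93%) held 1 library whose gap to the nearest other library, divided by the group's range, was above Dixon's critical value for 6 values, where chance gives about 1 in 20. In WT saline mice library 2 was the lowest in 5 of these sets, with Psma3 at 79.3 CPM (next 104, group median 108), Psmb1 at 77.5 (89.0, 90.8), Psmb3 at 67.5 (87.1, 87.9), Psmb4 at 58.9 (76.9, 81.1) and Psmd13 at 36.9 (40.8, 41.2). Library 2 is the WT saline library numbered among 1 to 6, and these are genes of the alpha ring, the beta ring and the 19S lid. In the same group Psmd12, a lid subunit, was lowest in library 9 (42.0 CPM, next 52.3), Psmd2, a scaffold of the base, was lowest in library 12 (101 CPM, next 112), and Psmd14 was highest in library 11 (47.2 CPM, next 41.5). In WT DCZ mice Psmd14 was highest in library 1 (51.9 CPM, next 43.3). In Th-Cre saline mice library DN2099 was the highest for Psma3 (108 CPM, next 86.3) and Psmb9 (11.8 CPM, next 8.49), and library DN2089 for Psme2 (69.3 CPM, next 61.3). In Th-Cre DCZ mice the chaperone Psmd10 was highest in library DN2097 (14.1 CPM, next 10.05).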

How the results depend on the processing

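No proteasome gene was called in either DCZ comparison or in the interaction under any alternative run (0 each, also 0 to 0 when single libraries were left out). The genotype comparison under saline (15 genes) gave 10 to 19 calls without single libraries, the lowest without WT library 12 or Th-Cre library DN2087 and the highest without WT library 2. It gave 0 without the 6 libraries with muscle transcripts, 1 in males (Psmb10), 0 in females and 4 with the library number term. With the transcript length offset it gave 10, and Psmb2 (0.068) and Psmb3 (0.045) had the opposite sign. The genotype comparison after DCZ (2 genes) gave 0 to 7 without single libraries. It gave 4 with upper-quartile scaling (1 higher, 3 lower), 4 by DESeq2, 1 with no filter on low counts, 10 with the library number term and 3 with the length offset. It gave 0 with no term for sex, without the 6 libraries with muscle transcripts, in females, and when fitted with only the groups compared. The sex comparison (11 genes) gave 6 to 11 without single libraries, 6 with no filter and 1 without the 6 libraries with muscle transcripts. The shares of all genes called are given above for the settings on muscle transcripts, library number and transcript length only. For the other settings, a change in the count may not be particular to proteasome genes. Apart from settings that use fewer samples, the causes were not tested. For single named genes 133, 22 and 99 values lost the threshold under an alternative in these 3 comparisons, in that order, and 571, 376 and 539 kept direction and side. Fits of 1 sex or without 6 libraries rest on fewer mice. The interaction uses all groups, so it was not run with only the groups compared, and the authors' normalized values were run for the DCZ comparisons only. No paired analysis was possible because mouse numbers are not shared between groups.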
